A study of Homo sapiens with 62 samples.

Results

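The zinc finger genes of the ZNF series were examined in nascent and total RNA of 2 human pancreatic ductal adenocarcinoma (PDAC) cell lines. Members were chosen by their T>C reads: the genes named ZNF followed by a number, and optionally 1 letter, with a mean of at least 100 T>C reads in the DMSO 4 h libraries of both AsPC-1 and T3M-4. A T>C read carries a thymine-to-cytosine conversion, the trace of 4-thiouridine (4sU) taken up into newly made RNA. The rule kept 180 of 529 ZNF names, among 29794 genes in the tables and 7637 genes of any name at the same minimum. A further 119 ZNF names reached the minimum in T3M-4 alone, 6 in AsPC-1 alone and 224 in neither line, and 39 of these had no T>C read in any DMSO 4 h library. Just inside the threshold stood ZNF672, ZNF684 and ZNF805, with means of 100.4, 101.2 and 102.0 T>C reads in the lower of the lines. Just outside stood ZNF747, ZNF585A and ZNF248, at 98.4, 97.5 and 94.4 reads. Because the rule used the T>C counts of the DMSO 4 h libraries, shares in these libraries are given as a description, and the libraries with NEG or with DMSO for 12 h, which the rule did not use, carry the same measure.

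Most ZNF proteins bind DNA through arrays of C2H2 fingers, each a short loop in which 2 cysteines and 2 histidines hold a zinc ion. Many also carry a KRAB (Krüppel-associated box) domain, through which they recruit TRIM28 and with it the histone methyltransferase SETDB1 and heterochromatin proteins, and many of these silence transposable elements. Others activate transcription, scaffold corepressors or act on RNA, ribosomes or mitotic chromosomes, and mRNAs of KRAB genes are known for short half-lives.

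AsPC-1 is a classical and T3M-4 a basal-like PDAC model. All groups carried the same genotype: a FKBP12-F36V-FLAG-KLF5 transgene, delivered by lentivirus, with the endogenous KLF5 gene disrupted by CRISPR, in selected cell populations. The groups were dTAG for 4 h, which degrades the tagged KLF5 transcription factor (10 AsPC-1 and 4 T3M-4 libraries), its inactive analogue NEG for 4 h (10 and 4), the RUVBL1/2 ATPase inhibitor CB6644 for 4 h (5 and 4) or, in AsPC-1, for 12 h (4), the vehicle DMSO for 4 h (5 and 4) or, in AsPC-1, for 12 h (4), and the CDK9 inhibitor NVP2 for 4 h (4 and 4). Cells took up 4sU during the last 2 h. Polyadenylated RNA was sequenced from the 3′ end, and each library gave all reads and T>C reads per gene.

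Libraries held 82676553 to 244524608 reads in genes, of which 2240998 to 27982537 were T>C reads. Keratins KRT8, KRT18 and KRT19 were high in both lines. HNF4A had a median of 15.1 CPM (reads scaled to library size) in AsPC-1 against 0.188 in T3M-4, and TP63 had a median of 27.4 in T3M-4 and of 0 in AsPC-1. PTPRC, PECAM1 and COL1A2 stayed below 1 CPM in every library, while COL1A1 had 4.06 to 8.79 CPM in T3M-4. The all-reads column of 1 AsPC-1 dTAG library (replicate 3.1) was left out because T>C reads exceeded all reads there in 8047 genes. No library was made without 4sU and none had a spike-in, so a background of T>C reads cannot be given and changes are relative to the other RNA of the library. In such bulk samples fewer cells and less RNA per cell cannot be told apart. The 2 numbers of a replicate name are read here as the experiment and the library within it, and p-values measure the spread between these libraries, which may in part be technical.

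A KRAB A box, called where at least 9 of 12 conserved residues were present, was found in 84 of the 179 members with a coding annotation. The windows below show it at both ends of the range of labelled shares described next. ZNF670, ZNF92 and ZNF304 had among the highest shares and ZNF90 the lowest. Capitals mark the codons of the conserved residues (12, 11, 11 and 12 of them), and the coding strand is shown, from GENCODE 44 transcripts on hg38.
ZNF670 (chr1:247039436-247039525, minus strand): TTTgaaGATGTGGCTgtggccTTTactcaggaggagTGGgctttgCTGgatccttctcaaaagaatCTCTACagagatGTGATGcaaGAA
ZNF92 (chr7:65387914-65388003, plus strand): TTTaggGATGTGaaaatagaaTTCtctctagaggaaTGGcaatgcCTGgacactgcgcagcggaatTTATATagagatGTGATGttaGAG
ZNF304 (chr19:57353737-57353826, plus strand): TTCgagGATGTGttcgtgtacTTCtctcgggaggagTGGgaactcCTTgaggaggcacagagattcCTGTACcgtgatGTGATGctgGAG
ZNF90 (chr19:20104251-20104340, plus strand): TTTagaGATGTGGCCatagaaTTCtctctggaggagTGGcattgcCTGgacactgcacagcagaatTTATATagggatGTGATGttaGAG
In all 4 windows the 90 bases lay within 1 exon.

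The first C2H2 finger of ZNF92 and of 2 members without a KRAB box, ZNF217 and ZNF281, is shown because total RNA of all 3 fell after NVP2 in both lines. Capitals mark the codons of the 2 cysteines and 2 histidines that hold the zinc ion, and each window is exonic.
ZNF92 (chr7:65398721-65398783, plus strand): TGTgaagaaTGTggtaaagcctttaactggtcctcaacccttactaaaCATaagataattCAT
ZNF217 (chr20:53582563-53582628, minus strand): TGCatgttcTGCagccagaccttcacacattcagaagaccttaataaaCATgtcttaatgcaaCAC
ZNF281 (chr1:200408857-200408919, minus strand): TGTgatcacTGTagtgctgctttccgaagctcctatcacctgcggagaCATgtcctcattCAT
Over the members the median was 9 matches to the finger pattern (C, 2 to 4 residues, C, 12 residues, H, 3 to 5 residues, H), with a range of 0 to 36. ZNF142 had the most. ZNF185, ZNF330, ZNF503, ZNF703 and ZNF839 had none: ZNF185 is a LIM-domain protein that binds actin, and ZNF703 and ZNF503 belong to the NET family of corepressors. KRAB members had a median of 12 fingers and the other members 7. On chromosome 19 lay 53 members (29.4%), 39 of them with a KRAB box, where 5.4% of all annotated genes at the same minimum lie. Many ZNF genes sit in clusters of related copies, and how reads were shared among near-identical copies was not tested.

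The labelled share of a gene, the percentage of its reads that are T>C reads, was higher for the members than for other genes with as many T>C reads in every NEG and DMSO library. In the 10 AsPC-1 NEG libraries the median member share was 31.5% ± 2.4 (SD), against 15.4% ± 1.2 for other genes weighted to the same T>C counts, a difference of 16.1 ± 1.4 percentage points (lowest 14.1, highest 18.3). In the 4 T3M-4 NEG libraries the shares were 46.8% ± 2.4 and 18.4% ± 1.3, a difference of 28.3 ± 3.3 points (25.6 to 32.7). In the 4 AsPC-1 DMSO 12 h libraries the difference was 15.02 ± 0.72 points. In each line 179 members had enough T>C reads in the NEG libraries. Of these, 170 in AsPC-1 and 169 in T3M-4 lay above the median of other genes in their own interval of T>C counts. In the DMSO 4 h libraries, which chose the members, the differences were 17.5 ± 0.64 points in AsPC-1 (n = 5) and 28.5 ± 1.8 in T3M-4 (n = 4).

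The excess was seen at low and at high counts. In AsPC-1 NEG libraries the 49 members with 100 to 200 T>C reads had a median share of 33.0% against 15.04% in 1693 other genes, and the 18 members with 800 to 1600 had 30.5% against 15.4% in 1315. In T3M-4 the 39 members with 200 to 400 had 44.6% against 18.7%, and the 25 members with 1600 to 3200 had 45.8% against 17.4%. When other genes were matched on all reads in place of T>C reads, the difference was smaller, at 9.45 points in AsPC-1 NEG and 22.5 in T3M-4 NEG libraries. The 40 genes of other C2H2 families at the same minimum (ZBTB, ZSCAN, ZKSCAN, ZFP and PRDM names) had median shares of 34.3% in AsPC-1 and 47.9% in T3M-4. In each line 40 of 40 lay above the median of all remaining genes in their own interval of T>C counts.

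**Figure D1:**
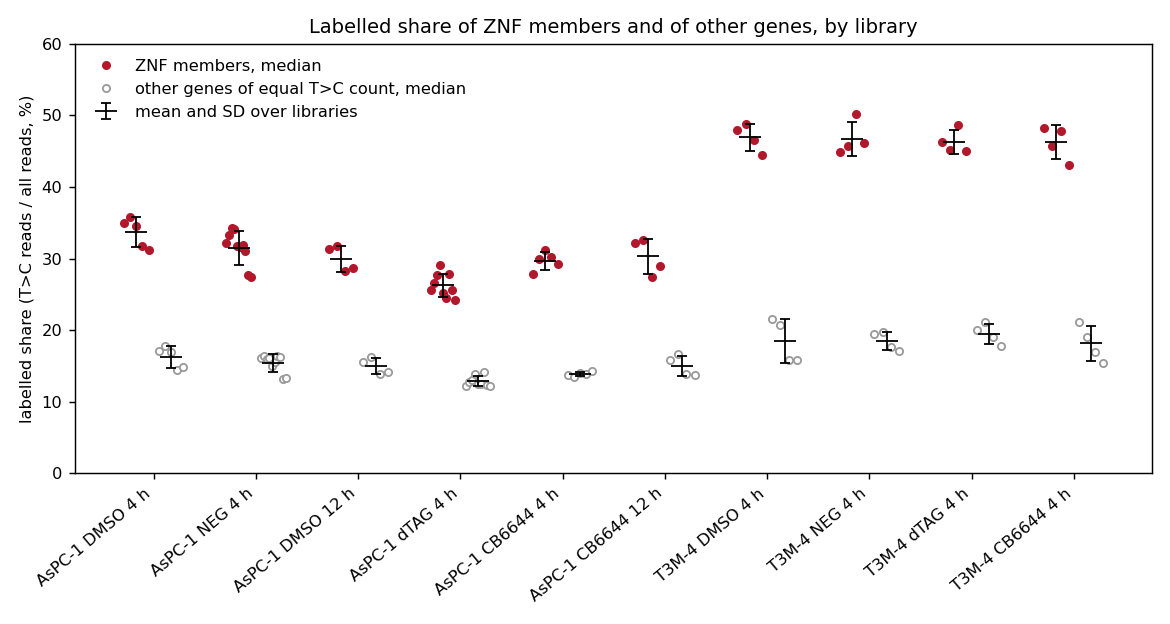
Median labelled share (percentage of reads with a T>C conversion) by library. Red points are the ZNF members, open grey points are other genes of equal T>C count, and bars give the mean and SD over libraries; in AsPC-1 NEG libraries members average 31.5% and other genes 15.4%, in T3M-4 NEG libraries 46.8% and 18.4%, and the 2 sets do not overlap in any group drawn (NVP2 is not drawn).

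Sequence features of the 3′ end were compared as a description. In the last 300 bases of the 3′UTR, members had a median T content of 30.7% against 32.9% in other genes at the same minimum, and a GC content of 37.8% against 37.2%. The letters ATTTA occurred in 48.3% of member windows and 49.3% of others, TATTTAT in 10.7% and 11.3%, TGTANATA in 7.30% and 11.4%, and AATAAA in 71.3% and 75.4%, searched on the transcript strand. The median 3′UTR was longer in members (1836 against 1445 bases). Across members the mean share of the lines had a Spearman rho of 0.26 with T content (n = 178), 0.28 with the number of fingers and 0.01 with 3′UTR length (n = 179 each). These are correlations across genes of the same libraries and are given as a description.

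Shares of single members ran from 2.502% to 62.9% in AsPC-1 NEG libraries (median 31.5%, quartiles 26.4% and 39.6%) and from 3.82% to 78.9% in T3M-4 (median 47.2%, quartiles 34.7% and 58.2%). ZNF670, a KRAB gene on chromosome 1, stood highest over both lines, with 56.7%, 61.0% and 74.8% (lowest, median and highest of 10) in AsPC-1 and 73.8%, 74.9%, 83.3% and 80.4% in T3M-4. ZNF92, a KRAB gene on chromosome 7, followed with 39.9%, 59.6% and 65.0% in AsPC-1 and 85.3%, 76.2%, 84.1% and 69.9% in T3M-4. Every T3M-4 share of ZNF92 was above its highest in AsPC-1, while those of ZNF670 overlapped between the lines. ZNF217, an oncogene on chromosome 20 whose protein works with corepressor complexes, had 51.8%, 56.0% and 63.1% in AsPC-1 and 79.7%, 75.5%, 72.8% and 80.1% in T3M-4. ZNF830, a component of a pre-mRNA splicing complex, had means of 51.2% ± 5.6 and 76.6% ± 6.2, and the KRAB gene ZNF304 had 50.4% ± 8.2 and 73.2% ± 9.9. The ranges of neighbours in this order of 5 overlapped in both lines.

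The lowest share was that of ZNF90, a KRAB gene of chromosome 19. Its share was 2.09%, 2.497% and 3.303% (lowest, median and highest) in AsPC-1 and 3.49%, 3.80%, 3.77% and 4.22% in T3M-4. ZNF511 had means of 6.53% ± 1.1 and 6.46% ± 3.4, ZNF185 of 8.89% ± 3.0 and 8.93% ± 2.0, ZNF664 of 12.5% ± 1.0 and 11.9% ± 1.7, and ZNF106 of 14.0% ± 3.2 and 14.4% ± 0.76. ZNF90 was higher in every T3M-4 library than in any AsPC-1 library, while the values of ZNF511, ZNF185, ZNF664 and ZNF106 overlapped between the lines.

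Members of known role spread over the range. The GC-box binding factor ZNF148 had shares of 35.3% ± 4.0 in AsPC-1 and 50.01% ± 4.9 in T3M-4, ZNF281, linked to stemness and epithelial-to-mesenchymal transition, 41.0% ± 4.6 and 62.3% ± 4.6, and ZNF143, an activator at promoters, 35.2% ± 4.7 and 32.3% ± 8.3. ZNF274, which brings SETDB1 to the 3′ ends of ZNF genes, had 39.8% ± 5.6 and 57.1% ± 4.8. Shares below the member median in both lines were those of ZNF598, an E3 ligase at collided ribosomes (18.04% ± 1.9 and 17.4% ± 6.2), and of ZNF207, a protein of mitotic kinetochores (18.9% ± 2.2 and 21.1% ± 2.7). ZNF326, of a complex that links transcription to splicing (16.2% ± 3.0 and 23.7% ± 1.9), and the nucleolar protein ZNF330 (17.3% ± 3.3 and 20.2% ± 0.86) were also below it. The ribosome biogenesis factor ZNF622 had 26.8% ± 3.6 and 35.2% ± 2.6. ZNF91, ZNF10 and ZNF750 were listed for their roles but did not reach the minimum in both lines. ZNF10 and ZNF750 reached it in T3M-4 alone.

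KRAB members had higher shares than members without a KRAB box. They also had fewer T>C reads in DMSO 4 h libraries, with medians of 217 against 330.6 in AsPC-1 and 508 against 705 in T3M-4. Groups by KRAB box or finger number were not matched on counts. What part these counts and the minimum of the rule have in the differences was not tested. In NEG libraries the median over KRAB members was 35.2% in AsPC-1 and 54.8% in T3M-4, against 29.3% and 40.4% in the 95 members without. The KRAB median was the higher in 10 of 10 AsPC-1 NEG libraries, by 4.82 ± 1.1 points, and in 4 of 4 T3M-4 NEG libraries, by 12.9 ± 0.97 points. It was also the higher in 4 of 4 AsPC-1 DMSO 12 h libraries, by 4.77 ± 0.47 points. KRAB members on chromosome 19 (39) had medians of 34.2% and 54.7%, and those elsewhere (45) 37.1% and 54.8%. The 29 members with 1 to 4 fingers had medians of 25.8% in AsPC-1 and 30.8% in T3M-4, below the 59 with 5 to 9 fingers (33.8% and 48.1%) and the 86 with 10 or more (32.4% and 48.9%).

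Shares were higher in T3M-4 than in AsPC-1 for 171 of 180 members (95.0%), with a median difference of 14.4 points. For 88 members every T3M-4 NEG library was above every AsPC-1 NEG library. Among the 7457 other genes at the minimum 80.0% were higher in T3M-4, with a median difference of 2.55 points. Of these 7457 genes, 1934 had every T3M-4 NEG library above every AsPC-1 NEG library. Genes apart in the other direction were not counted. The order of members was alike in both lines (Spearman rho 0.86 over 180 members, a description across genes). Uptake of 4sU was not analysed here, and the pooled share of all other genes also differed, at 9.25% ± 0.68 in AsPC-1 and 12.5% ± 0.53 in T3M-4.

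**Figure D2:**
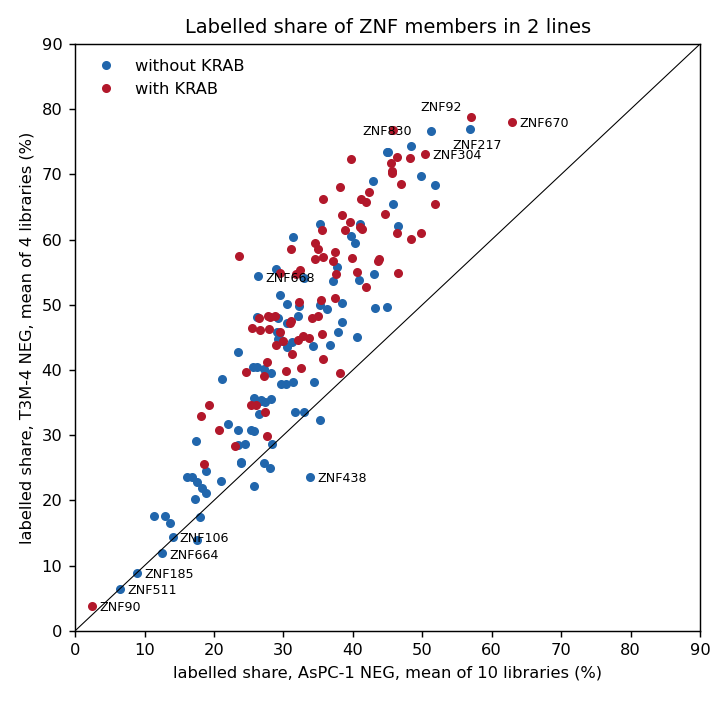
Labelled share of each member with a coding annotation (179 points) in AsPC-1 NEG libraries (horizontal axis, mean of 10) and T3M-4 NEG libraries (vertical axis, mean of 4), in percent. Red points carry a KRAB box, blue points do not, and the line marks equal shares; most points lie above it, ZNF670 and ZNF92 at the upper right and ZNF90 at the lower left.

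Levels of the members also differed between the lines, in both directions. In NEG libraries all reads of 47 members were higher and of 50 lower in T3M-4 (edgeR adjusted p under 0.05), where 33.5% of all genes tested were higher and 28.7% lower. ZNF703, a NET-family corepressor and breast cancer oncogene, had 41.7, 66.7 and 83.0 CPM (lowest, median and highest of 10) in AsPC-1 and 4.33, 5.10, 4.62 and 5.92 in T3M-4 (log2 −3.73 ± 0.20 SE, edgeR adjusted p = 6.9e-10). ZNF185 went the other way, with 9.34, 16.4 and 21.7 CPM in AsPC-1 and 101, 82.6, 119 and 120 in T3M-4 (log2 2.73 ± 0.18, edgeR adjusted p = 3.78e-09). For both genes every T3M-4 library lay apart from every AsPC-1 library. ZNF384, known from leukaemia fusions, was also higher in T3M-4 (log2 1.58 ± 0.13) as was ZNF805 (1.38 ± 0.16), while ZNF397 (−1.89 ± 0.17) and ZNF438 (−2.09 ± 0.21) were lower. ZNF genes that reached the minimum in 1 line alone are not members: ZNF331 had a mean of 0 T>C reads in AsPC-1 and 6491 in T3M-4 DMSO 4 h libraries.

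NVP2 inhibits CDK9, the kinase that releases paused RNA polymerase II into elongation. Total RNA of many members fell within 4 h, while most genes did not pass the test. All reads of the members were summed and scaled to total reads, without the TMM scaling used for single genes. The sums were 2699 ± 108 CPM in AsPC-1 DMSO 4 h libraries (n = 5) and 1813 ± 128 after NVP2 (n = 4). In T3M-4 they were 2917 ± 253 and 1947 ± 319 (n = 4 each). The drop in these sums is thus on another scale than the changes by gene below. The median member share was 2.66% ± 0.63 after NVP2 in AsPC-1 and 2.99% ± 1.8 in T3M-4, against 33.7% ± 2.1 and 46.9% ± 1.9 in DMSO 4 h libraries.

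By gene, all reads of 84 of 180 members fell in AsPC-1 and 1 rose, where 8.39% of all genes tested fell and 3.43% rose (edgeR adjusted p under 0.05). In T3M-4 68 fell and none rose, where 4.91% of all genes fell and 0.243% rose. The median log2 change was −0.85 over members and 0.06 over all genes in AsPC-1, and −0.86 and 0.06 in T3M-4. Among the 7457 other genes at the minimum 10.3% and 6.07% fell. T>C reads of these DMSO 4 h libraries chose the members and are part of all reads. The NEG and DMSO 12 h controls below lie outside the rule. In AsPC-1 the NVP2 libraries belong to batch 2 and the DMSO 4 h libraries to batch 1, which cannot be told apart from the treatment in this comparison. With the batch 2 NEG libraries of experiment 3 as controls, 79 members fell (6.54% of all genes), and with the DMSO 12 h libraries 65 (4.61%). With the T3M-4 NEG libraries as controls 74 fell (5.10%). With every set of controls 61 members fell in each line, and all genes were not counted under this joint rule. In T3M-4, 29 members fell within batch 1 (1.86% of all genes) and 121 within batch 2 (12.0%), with 2 libraries a group in each. With the replicate number fitted as a block 119 fell in T3M-4 (1530 of 15653 genes), and with the experiment as a block 119 (1544). Scaling to total reads moved the median of all genes to −0.16 in AsPC-1 and −0.09 in T3M-4, and 105 and 81 members then fell, against 12.3% and 5.93% of all genes.

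**Figure D3:**
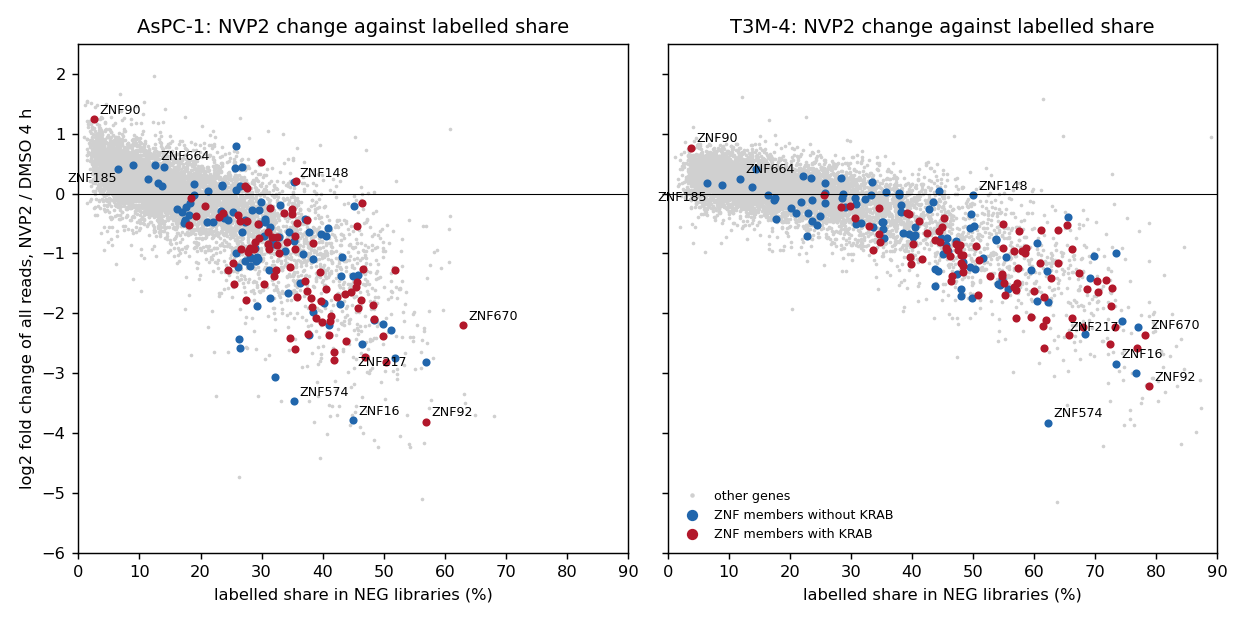
Change of all reads after NVP2 (vertical axis, log2 fold change against DMSO 4 h) against the labelled share in NEG libraries (horizontal axis, percent), left AsPC-1 and right T3M-4. Small grey points are other genes at the minimum, red points members with and blue points members without a KRAB box (179 members); in both lines points of higher share lie lower, with ZNF92, ZNF574 and ZNF16 among the lowest and ZNF90 at the top left. A single other gene beyond the lower end of the AsPC-1 axis and another beyond a share of 90% in T3M-4 are not drawn.

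Members with higher labelled shares had lower NVP2 changes. Across the 180 members the Spearman rho between the NEG labelled share and the NVP2 change of all reads was −0.68 in AsPC-1 and −0.82 in T3M-4, and across the 7457 other genes −0.70 and −0.63. In T3M-4 the 45 members with shares of 40% to 50% had a median change of −0.91 against −0.50 in 422 other genes of that share, and the 22 members with 20% to 30% had −0.18 against −0.03 in 1566. The gap was smaller at the highest shares, with −1.51 against −1.35 at 60% to 70% (15 of 26 members below the median of other genes) and −2.23 against −2.16 from 70% up (8 of 15). In AsPC-1 the 60 members with 30% to 40% had −0.89 against −0.70, and the 35 with 40% to 50% had −1.83 against −1.28. In each line 130 of 180 members lay below the median of other genes in their share interval, with a median difference of −0.27 in AsPC-1 and −0.24 in T3M-4. KRAB members lay further below it (−0.47 and −0.33) than members without a KRAB box (−0.20 and −0.20). These are descriptions across genes.

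The median change of KRAB members was −1.20 in AsPC-1 and −1.10 in T3M-4, with 45 and 38 of 84 called lower, against −0.64 and −0.55 in the others, with 39 and 30 of 95. Members with 1 to 4 fingers had medians of −0.29 and −0.23, with 7 and 5 of 29 called lower, and those with 5 to 9 fingers −1.07 and −0.99, with 36 and 26 of 59. Members with 10 or more fingers had −0.93 and −0.94, with 39 and 35 of 86. Differences between these groups were not tested. The 40 genes of other C2H2 families had medians of −0.90 and −0.71, with 21 and 14 called lower. Of all genes tested, 8.39% in AsPC-1 and 4.91% in T3M-4 were called lower.

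ZNF92 had the lowest log2 change of the KRAB members in both lines. Its all reads were 7.76, 8.43, 11.0, 8.41 and 10.6 CPM in AsPC-1 DMSO 4 h libraries and 0.499, 0.381, 0.878 and 0.879 after NVP2. In T3M-4 they were 5.23, 4.31, 4.14 and 4.05 CPM before and 0.480, 0.729, 0.296 and 0.397 after. No treated library came near a control, at 14.0-fold lower in AsPC-1 (log2 −3.81 ± 0.32, edgeR adjusted p = 7.82e-05) and 9.31-fold lower in T3M-4 (−3.22 ± 0.30, edgeR adjusted p = 0.000843). With NEG controls the log2 changes were −3.63 ± 0.32 and −3.22 ± 0.33.

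Among members without a KRAB box, ZNF574 fell to a like extent. All reads were 10.8, 3.37, 4.82, 3.39 and 2.85 CPM in AsPC-1 controls and 0.518, 0.269, 0.433 and 0.595 after NVP2. In T3M-4 they were 5.07, 11.4, 8.92 and 9.49 CPM before and 0.572, 0.740, 0.5 and 0.645 after. The first AsPC-1 control stood above the other 4, and the groups did not overlap in either line (log2 −3.47 ± 0.47, edgeR adjusted p = 0.00114, and −3.83 ± 0.28, 0.000225). ZNF16 fell in both lines (log2 −3.78 ± 0.37, edgeR adjusted p = 0.000169, and −2.84 ± 0.49, 0.00977). The KRAB gene ZNF557 also fell (−2.78 ± 0.32, edgeR adjusted p = 0.00047, and −2.36 ± 0.39, 0.00853), though every count of it is a multiple of a whole number above 1, as for 6 other members.

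ZNF281 fell in both lines. All reads were 44.5, 37.6, 44.4, 43.7 and 49.4 CPM in AsPC-1 controls and 12.1, 9.76, 9.06 and 7.58 after NVP2, and 53.2, 46.8, 59.2 and 54.0 against 18.8, 14.6, 15.8 and 11.6 in T3M-4. No treated library reached the lowest control in either line (log2 −2.19 ± 0.18, edgeR adjusted p = 7.82e-05, and −1.81 ± 0.18, 0.00109). ZNF217 had 14.0, 10.48, 14.0, 14.96 and 18.8 CPM in AsPC-1 controls and 2.99, 2.07, 1.503 and 1.64 after NVP2. In T3M-4 it had 8.79, 5.93, 3.64 and 4.53 before and 1.74, 1.35, 0.805 and 0.980 after. The groups were apart in both lines (log2 −2.82 ± 0.27, edgeR adjusted p = 0.000156, and −2.23 ± 0.34, 0.00642).

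Of the other members of known role, ZNF274 fell in both lines (log2 −2.15 ± 0.24 and −1.501 ± 0.31), as did ZNF644, a partner of the methyltransferase G9a (−1.10 ± 0.26 and −1.35 ± 0.27), and ZNF24 (−0.65 ± 0.16 and −0.74 ± 0.14). ZNF146 fell in AsPC-1 (−0.79 ± 0.15, edgeR adjusted p = 0.00676) and had −0.55 ± 0.14 in T3M-4, and ZNF384 fell in T3M-4 (−1.01 ± 0.18) and had −0.70 ± 0.21 in AsPC-1. ZNF143, ZNF148, ZNF207, ZNF598, ZNF622, ZNF638, ZNF326 and ZNF330 passed the test in neither line, with log2 changes between −0.80 and 0.19 in AsPC-1 and −0.58 and 0.17 in T3M-4.

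**Figure D4:**
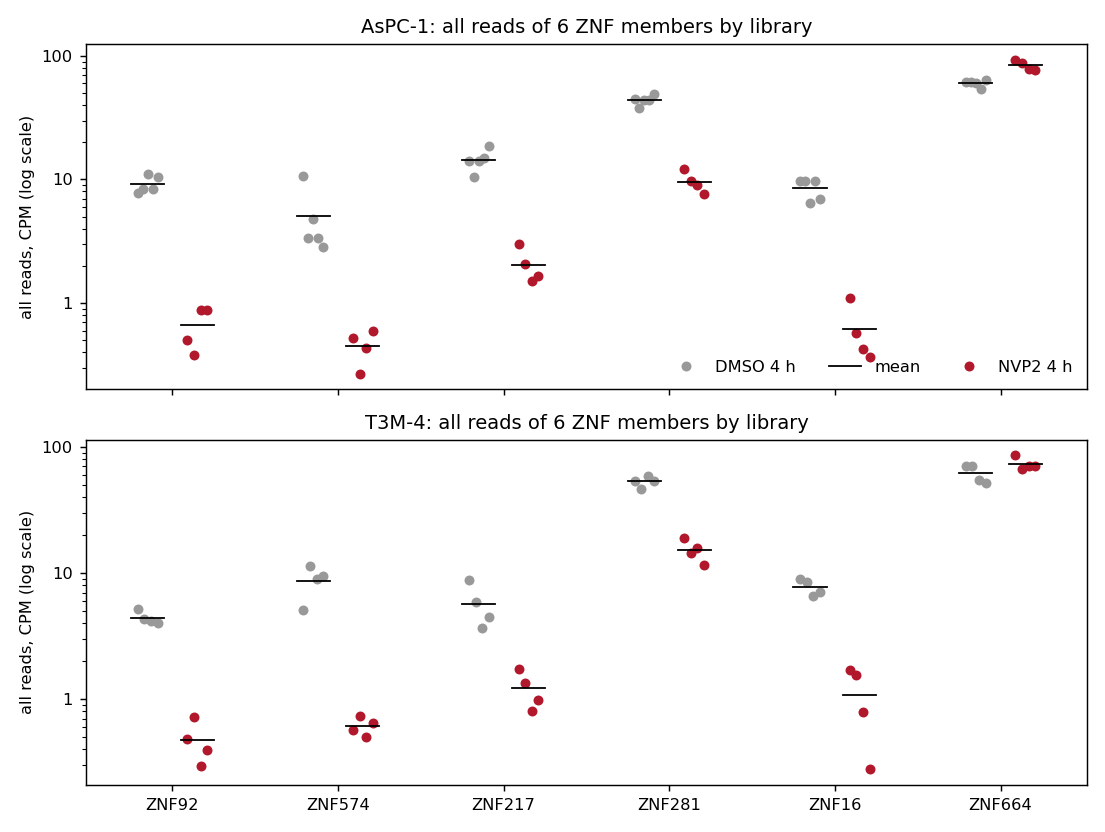
All reads of 6 members (CPM, log axis) in each DMSO 4 h library (grey) and NVP2 library (red), AsPC-1 above and T3M-4 below, with a black line at each mean. ZNF92, ZNF574, ZNF217, ZNF281 and ZNF16 are lower in every NVP2 library than in any DMSO library of the same line, and ZNF664 is not.

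In both lines 53 members fell, where 3.91% of the 13437 genes tested in both did, which is 63.1% of the 84 in AsPC-1 and 77.9% of the 68 in T3M-4, and 150 members had a log2 change below 0 in both. Losses in the lines had a Spearman rho of 0.79 over the 180 members. All reads of 15 members were lower by more than 4-fold in both lines: ZNF7, ZNF16, ZNF92, ZNF200, ZNF217, ZNF304, ZNF324, ZNF398, ZNF503, ZNF557, ZNF561, ZNF574, ZNF670, ZNF764 and ZNF830, chosen for these values. The share of all genes past this cut, or with changes below 0 or above 0 in both lines, is not given. These counts therefore do not set the members apart from other genes. The test of the difference between the lines called none of the 180 members for all reads, where it called 0.00599% of all genes, and 26 members (14.4%) had an unadjusted p under 0.05, where 9.03% of all genes did.

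A set of 8 members had all-reads changes above 0 in both lines: ZNF90, ZNF106, ZNF185, ZNF395, ZNF511, ZNF618, ZNF652 and ZNF664, named for these values. ZNF664 had 61.6, 61.9, 59.99, 54.4 and 64.1 CPM in AsPC-1 controls and 93.2, 86.8, 78.7 and 76.7 after NVP2, all higher (log2 0.47 ± 0.14, edgeR adjusted p = 0.049). That call was lost when any of the 9 libraries was left out (edgeR adjusted p 0.0679 to 0.125), and in T3M-4 the values overlapped (0.25 ± 0.16, edgeR adjusted p = 0.502). ZNF90 had 60.1, 46.9, 36.9, 51.4 and 15.002 CPM in AsPC-1 controls and 71.0, 107, 56.9 and 164 after NVP2, where 1 treated library lay below the highest control (1.25 ± 0.40, edgeR adjusted p = 0.0658). ZNF618 ranged over 0.656 to 16.7 CPM among AsPC-1 controls and 0.856 to 31.9 after NVP2 and changed sign with other controls.

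T>C reads, which report RNA made during the last 2 h, fell for 93 members in AsPC-1 and rose for 8, where 17.6% of all genes tested fell and 12.9% rose, and fell for 82 and rose for 4 in T3M-4, where 14.2% fell and 12.4% rose. The median log2 change was −1.38 over members and −0.05 over all genes in AsPC-1, and −1.70 and −0.12 in T3M-4. With controls that the rule did not use, 82 of the 179 members tested fell against NEG of experiment 3 in AsPC-1 (15.7% of all genes), 81 against DMSO 12 h (14.4%) and 79 against NEG in T3M-4 (13.6%). These changes are relative to the labelled RNA of the same library. T>C reads of the DMSO 4 h libraries chose the members. T>C values against those libraries, also of single members below, are therefore a description. When T>C reads were scaled by all reads, the median of all genes was −3.26 in AsPC-1 and −3.09 in T3M-4, that of members was −4.59 and −4.58, and no member was higher in either line, while 180 and 179 fell, against 94.1% and 87.2% of all genes.

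ZNF148 had more T>C reads relative to other labelled RNA, with 168, 89.9, 135, 90.1 and 126 CPM in AsPC-1 controls and 259, 436, 326 and 396 after NVP2, and 202, 145, 222 and 161 against 600, 444, 366 and 363 in T3M-4. The groups did not overlap (log2 1.54 ± 0.25, edgeR adjusted p = 0.00103, and 1.28 ± 0.27, 0.00679), yet scaled by all reads the changes were −1.70 and −1.67. ZNF428 and ZNF652 were also called higher in both lines on the scale of labelled RNA. ZNF281 T>C reads were 146, 150, 146, 194 and 200 CPM in AsPC-1 controls and 8.69, 17.7, 21.9 and 16.0 after NVP2, and 207, 171, 310 and 290 against 7.63, 18.3, 36.9 and 11.0 in T3M-4. The groups did not overlap in either line (log2 −3.38 ± 0.30, edgeR adjusted p = 4.03e-05, and −3.73 ± 0.50, 0.000749). ZNF830 had the lowest T>C change in T3M-4, and ZNF16 in AsPC-1 (log2 −5.91). ZNF830 had 4, 2, 2 and 2 T>C reads after NVP2 in AsPC-1 and 0 in all 4 T3M-4 libraries, where the DMSO 4 h libraries held 697, 287, 497 and 822. Against a floor of 3 reads over the 4 libraries, ZNF830 T>C reads, per total T>C reads, were at least 160-fold lower in T3M-4. The difference between the lines passed the test for ZNF830 (edgeR adjusted p = 0.00653) and for no other member, where 0.851% of all genes were called. This test too used T>C reads of the DMSO 4 h libraries.

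**Figure D5:**
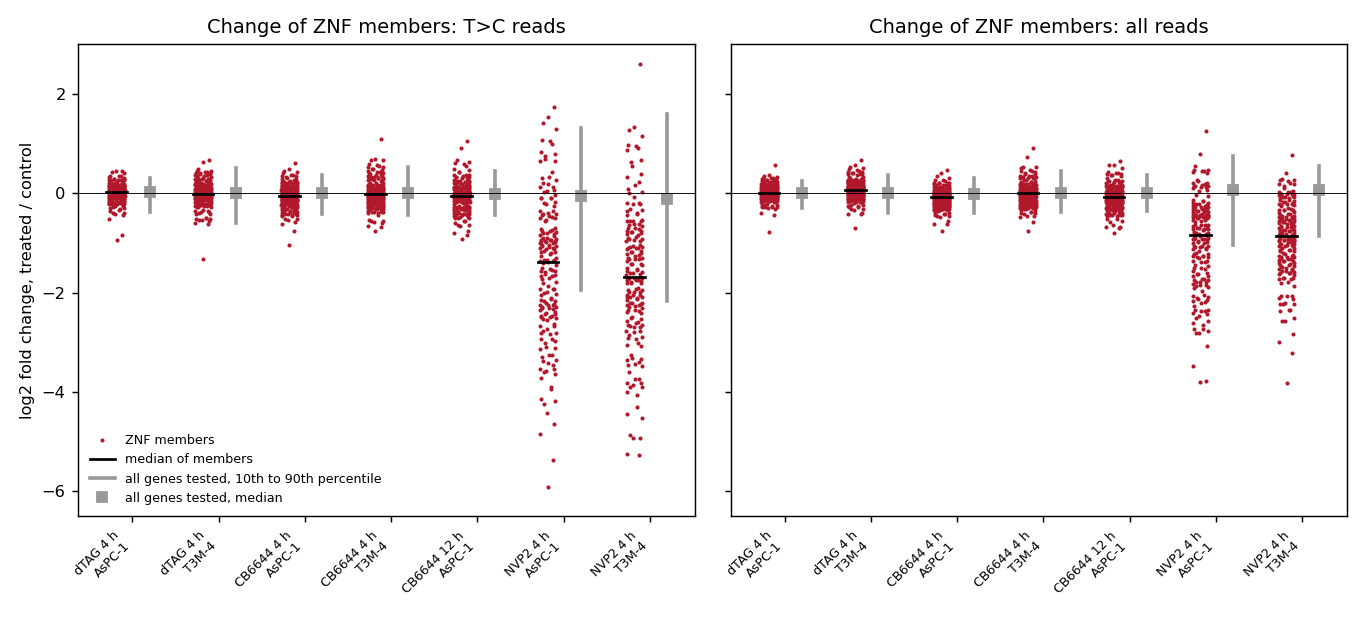
Log2 fold change of every member in 7 comparisons, T>C reads on the left and all reads on the right. Red points are members with a black line at their median, grey lines run from the 10th to the 90th percentile of all genes tested with a square at the median; members gather at 0 after dTAG and CB6644 and lie below the median of all genes after NVP2, and the value of ZNF830 for T>C reads in T3M-4 (0 reads after NVP2) lies below the axis.

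The dTAG comparison asks which RNAs respond to loss of KLF5. Neither T>C reads nor all reads of any of the 180 members passed the test in AsPC-1 (n = 10 a group for T>C reads; 9 dTAG libraries for all reads) or T3M-4 (n = 4 a group). For T>C reads 2.4% of all genes were called in AsPC-1 and 0.834% in T3M-4, and for all reads 0.797% and 0.0191%. An unadjusted p under 0.05 was found for T>C reads of 13 members in AsPC-1 (7.22%, against 12.1% of all genes) and of 3 in T3M-4 (1.67%, against 7.13%). For all reads as many members had one, against 7.58% and 3.39% of all genes. The median log2 change of T>C reads was 0.02 over members and 0.03 over all genes in AsPC-1, and −0.01 and 0.01 in T3M-4, with a median SE per member of 0.16 and 0.25. In AsPC-1 148 of 180 members lay within 0.25 of 0. DESeq2 called 1 member lower for T>C reads in each line, where it called 3.06% of all genes lower in AsPC-1 and 2.04% in T3M-4.

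For T>C reads ZNF185 had the smallest edgeR p of the members in both lines, without passing in the main fits. It was the member that DESeq2 called lower, with log2 −0.95 (DESeq2 adjusted p = 0.0207) in AsPC-1 and −1.31 (0.00352) in T3M-4. Apart from fits that left out a library, ZNF185 passed in 5 of 9 alternatives in AsPC-1 and 3 of 8 in T3M-4. Its T>C reads in AsPC-1 were 7.42, 13.4 and 27.1 CPM (lowest, median and highest) with NEG and 2.70, 7.15 and 15.1 with dTAG (log2 −0.94 ± 0.27, edgeR adjusted p = 0.0738). In T3M-4 they were 69.9, 53.9, 75.3 and 130 with NEG and 39.0, 42.7, 23.9 and 26.2 with dTAG (−1.32 ± 0.30, edgeR adjusted p = 0.0981). The groups overlapped in AsPC-1 and were apart in T3M-4. All reads of ZNF185 had log2 changes of −0.17 ± 0.13 and −0.20 ± 0.19, with overlap in both lines.

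Same-numbered dTAG and NEG libraries deviated together in both lines, so the replicate number was also fitted as a block. In AsPC-1 it then called 3 members lower and 1 higher for T>C reads, where 5.14% of all genes were lower and 2.27% higher. For all reads it called 2 lower and 2 higher, where 2.58% of all genes were lower and 1.31% higher. ZNF185 passed for T>C reads (log2 −1.02 ± 0.27, edgeR adjusted p = 0.0331). ZNF488, a corepressor known from oligodendrocytes, passed for T>C reads (−0.87 ± 0.14, edgeR adjusted p = 0.00114) and all reads (−0.75 ± 0.10, 0.00115). Its T>C reads were 8.36, 26.99 and 36.9 CPM with NEG and 6.23, 11.8 and 30.9 with dTAG, which overlap, and its counts are also such multiples. ZNF281 passed upward for T>C reads (0.35 ± 0.08, edgeR adjusted p = 0.011), with 129, 163 and 215 CPM against 167, 214 and 284, and for all reads (0.35 ± 0.09, 0.0395). ZNF431 was lower for both (−0.35 ± 0.09, edgeR adjusted p = 0.03, and −0.40 ± 0.08, 0.0121), and ZNF22, named because it passed, was higher for all reads (0.28 ± 0.07, edgeR adjusted p = 0.0453). In T3M-4 the block called no member, where it called 2.22% of all genes for T>C reads and 0.299% for all reads. With the block, 24 members in AsPC-1 and 11 in T3M-4 had an unadjusted p under 0.05 for T>C reads, against 19.8% and 12.1% of all genes, which is 13.3% and 6.11% of the members. For all reads 26 and 16 had one (14.4% and 8.89%), against 15.5% and 8.46%. The test of the difference between the lines called no member for T>C reads, where 0.0426% of all genes were called, and 6 members (3.33%) had an unadjusted p under 0.05, against 5.85%.

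In AsPC-1 labelled shares of members and of other genes were both lower with dTAG. The median share over all 180 members was 26.3% ± 1.6 with dTAG (n = 9, 24.1% to 29.2%) and 31.6% ± 2.4 with NEG (n = 10, 27.4% to 34.4%), while the pooled share of other genes was 7.97% ± 0.34 and 9.25% ± 0.68. In T3M-4 the median member share was 46.2% ± 1.7 and 46.7% ± 2.4 (n = 4 each). In AsPC-1 the T>C changes scaled by all reads had a median of −0.23 over members and −0.22 over all genes, and 13 members were then called lower, where 7.9% of all genes were. The part that lower labelling of all genes has in these values was not tested.

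CB6644 inhibits RUVBL1 and RUVBL2, ATPases of chromatin remodelling and chaperone complexes. No member passed the test for T>C or all reads after 4 h in AsPC-1 or T3M-4 or after 12 h in AsPC-1, and edgeR called 0.0% of all genes except for all reads in T3M-4, where it called 0.0127%. Members with an unadjusted p under 0.05 numbered 6, 13 and 11 for T>C reads in that order (3.33%, 7.22% and 6.11%, against 4.14%, 4.23% and 3.88% of all genes). For all reads they numbered 3, 7 and 7 (1.67%, 3.89% and 3.89%, against 1.92%, 2.87% and 2.26%). DESeq2 called 1 member, ZNF23, higher for T>C reads after 12 h, and 0.0737% of all genes. The median log2 change of T>C reads over members was −0.06, −0.03 and −0.05, against −0.01, 0.00 and −0.01 over all genes, with a median SE of 0.22, 0.23 and 0.27. The CB6644 4 h and NVP2 comparisons share their DMSO 4 h libraries. Because T>C reads of those libraries chose the members, the 4 h values for T>C reads are a description, while the 12 h comparison uses libraries outside the rule.

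ZNF23 had T>C reads of 17.3, 14.0, 11.5 and 17.2 CPM with DMSO and 38.7, 30.1, 27.02 and 28.4 with CB6644 for 12 h. All 4 treated libraries were the higher (log2 1.05 ± 0.22), but the edgeR adjusted p was 0.872, and the counts of ZNF23 are such multiples too. After 4 h ZNF611 in T3M-4 (0.67 ± 0.20, edgeR adjusted p = 0.994) and ZNF384 in AsPC-1 (−0.43 ± 0.15, edgeR adjusted p = 0.979) had among the smallest p-values. ZNF384 T>C reads were 74.9, 62.8, 71.9, 51.2 and 54.0 CPM with DMSO and 49.7, 40.9, 48.4, 49.5 and 45.5 with CB6644, just without overlap. The median member share in AsPC-1 was 29.6% ± 1.3 with CB6644 (27.6% to 31.1%) and 33.7% ± 2.1 with DMSO (31.2% to 35.8%), while the pooled share of other genes was 8.48% ± 0.26 and 10.0% ± 0.61. In T3M-4 it was 46.2% ± 2.4 and 46.9% ± 1.9, and after 12 h in AsPC-1 30.3% ± 2.5 and 30.1% ± 1.9. The test of the difference between the lines at 4 h called no member for T>C reads and 0.0% of all genes, and 6 members (3.33%) had an unadjusted p under 0.05, against 3.66% of all genes.

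Proteins that KRAB zinc finger proteins work through had lower labelled shares than most members. Of 24 listed cofactors, which include TRIM28, SETDB1, the heterochromatin proteins CBX1, CBX3 and CBX5 and the silencing complex of TASOR, MPHOSPH8 and PPHLN1, none passed in the dTAG or CB6644 comparisons for T>C or all reads. Their labelled shares in NEG libraries had medians of 13.3% in AsPC-1 and 14.0% in T3M-4, and 22 and 23 of 24 lay below the member median. Genes other than the members, with a mean of at least 100 T>C reads in these libraries, had medians of 15.3% and 18.5%. After NVP2 their median all-reads change was 0.06 in AsPC-1 and 0.30 in T3M-4, and T>C reads of 5 rose and 6 fell in AsPC-1 (20.8% and 25%, against 12.9% and 17.6% of all genes) and of 7 rose and 1 fell in T3M-4 (29.2% and 4.17%, against 12.4% and 14.2%). All reads of 2 fell in AsPC-1, a share of 8.33% beside 8.39% of all genes, and of none in T3M-4, where 4.91% of all genes fell: SETDB1 had −1.08 ± 0.26 (edgeR adjusted p = 0.0211) and −0.24 ± 0.29, and the histone chaperone DAXX −0.91 ± 0.21 (edgeR adjusted p = 0.0185) and −0.30 ± 0.18. TRIM28, the shared corepressor, had a share of 7.41% and 8.09% and NVP2 changes of 0.33 ± 0.27 and 0.34 ± 0.47. MORC3, an ATPase of nuclear bodies, had shares of 37.3% and 54.3%, within the quartiles of the members in both lines.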

How the data were processed

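SLAM-seq libraries from AsPC-1 and T3M-4 were deposited by the authors as tables of counts per gene, T>C reads and all reads for each library. The authors aligned single-end QuantSeq 3′ reads to hg38 with slamdunk at default settings (version not given in the sources used here), counted over GENCODE 44 3′UTR exons and summed per gene. The column of 1 library was left out, and 18 unnamed columns held 0 values. Groups came from the labels.

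Members, lists and tests were chosen with earlier results of these data known. Counts were tested with edgeR 4.0.16 (R 4.3.3; filterByExpr, TMM, quasi-likelihood test), with Benjamini-Hochberg adjustment over all genes tested and a threshold of 0.05. Each contrast was fitted on the libraries of its own groups alone, and the line interactions on those of both lines. Some contrasts share control libraries. All 180 members passed the filter on low counts. CPM are TMM-scaled. Labelled shares are T>C reads over all reads. Tests were checked on simulated data. Alternatives were DESeq2 1.42.0, other scalings, no filter, blocks, other controls and leaving out libraries. KRAB boxes and fingers were read from translated GENCODE transcripts, not from RefSeq proteins as first planned.

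Named genes were the 5 most abundant members by T>C reads, the 5 highest and 5 lowest shares, up to 3 per direction with the smallest p in each comparison (3 by unadjusted p where none passed), the 5 lowest and 5 highest NVP2 changes, listed members of known role, the 3 on each side of the threshold, and 3 per direction between lines. The text gives those that carry each comparison. Same-numbered libraries deviated together for dTAG in both lines (correlations from 0.17 to 0.54), CB6644 in T3M-4 (0.16 to 0.43) and CB6644 at 12 h (0.33 to 0.65). Depth limits the precision of low members, and intervals from counts would cover counting error only.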

Additional observations from a re-analysis of the deposited data

Results flagged for a closer look

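Among 96 groups of libraries tested, 3 held a library that stood far from the others, and chance alone gives about 1 in 20. All reads of ZNF574 were 10.8 CPM in AsPC-1 DMSO 4 h replicate 1.1, against 2.85 to 4.82 in the other 4 libraries. T>C reads of ZNF185 were 27.1 CPM in AsPC-1 NEG replicate 3.3, against 7.42 to 17.2 in the other 9. The labelled share of ZNF90 was 3.303% in AsPC-1 NEG replicate 1.4, against 2.09% to 2.71% in the other 9.

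The NVP2 change of ZNF830 T>C reads differed between the lines by −7.47 on the log2 scale (T3M-4 minus AsPC-1, edgeR adjusted p = 0.00653). The gene had 0 T>C reads in all 4 T3M-4 NVP2 libraries, so this fitted value depends on the prior count and is no bound. The comparison also used the DMSO 4 h T>C reads that chose the members.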

How the results depend on the processing

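Of the summary values under alternatives, 551 were labelled as unchanged and 53 as moved. A count with no member called in the main fit and none in the alternative was also labelled as unchanged. Most counts for dTAG and CB6644 were of this kind and have no direction or size to keep. The 551 therefore do not measure how well the results held. Of the values of single members, 1170 kept direction and call, 22 gained a call, 14 lost it and 10 changed sign. Fits within batches and with NEG controls for NVP2 in T3M-4 were chosen after seeing the data, and no cause was tested. Numbers in brackets below are all genes called in the same direction, of those tested. For dTAG in AsPC-1, T>C calls lower were 1 with DESeq2 (358 of 11696) and 3 with the replicate block (601). They were 2 with the experiment block (350), 2 with the library set block (453) and 13 scaled by all reads (929 of 11761). The library sets are clusters of the AsPC-1 libraries drawn from these same T>C reads. They are not given by the labels, so this block is no independent check. Calls higher were 1 with the replicate block (266 of 11696) and 1 with the library set block (185). For all reads they were 2 lower and 2 higher with the replicate block (359 and 183 of 13931). Each of the other blocks gave 1 lower (171 with the experiment block and 281 with the library set block). In T3M-4, dTAG T>C calls lower were 1 with DESeq2 (274 of 13424), 2 with the experiment block (296) and 1 within batch 2 (112 of 13301). For CB6644 at 12 h DESeq2 called 1 higher (9 of 12204).

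For NVP2 in AsPC-1, T>C reads scaled by all reads gave 180 lower and 0 higher (10823 and 6 of 11498). All reads gave 2 higher with DESeq2 (1114 of 14095). They gave 0 higher with no filter (379 of 20280) or total count scaling (133 of 14095). With the other controls they also gave 0, for NEG of experiment 3 (36 of 14237) and for DMSO 12 h (4 of 14270). In T3M-4, T>C reads gave 179 lower and 0 higher when scaled by all reads (10671 and 9 of 12242). Calls higher were 7 with DESeq2 (2144 of 12242) and 2 within batch 2 (1144 of 12254). All reads gave 119 lower with the replicate block (1530 of 15653) and 119 with the experiment block (1544). They gave 29 lower within batch 1 (297 of 15990) and 121 within batch 2 (1887 of 15754). Calls higher were 1 under the experiment block (932 of 15653) and 2 within batch 2 (1068 of 15754). Same-numbered NVP2 and DMSO libraries in T3M-4 correlated at 0.08 to 0.37, with 3 of 4 pairs over 0.1, and those of CB6644 at 4 h in AsPC-1 at −0.08 to 0.47, with 4 of 5, so the numbers were not taken to pair them. The replicate block moved no other count of members called at an adjusted p under 0.05 by over 1.5 times. No paired analysis was possible for NVP2 in AsPC-1 because the groups share no number within a batch.

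Matched on all reads, the excess in share was 9.39 points in AsPC-1 DMSO, 9.45 in AsPC-1 NEG, 22.5 in T3M-4 DMSO and 22.45 in T3M-4 NEG libraries, and AsPC-1 DMSO 4 h became 16.1 with NEG or 15.02 with DMSO 12 h libraries. Leaving out 1 library at a time gave 17.3 to 17.8, 15.9 to 16.3, 27.7 to 29.3 and 26.9 to 29.4 points in that order. It gave 0 to 1 lower T>C call for dTAG in AsPC-1 (1 without dTAG 2.1 or NEG 3.2). For NVP2 in AsPC-1 it gave 74 to 97 lower and 5 to 8 higher T>C calls (5 without NVP2 1.1 or 1.2), and 67 to 89 lower and 0 to 1 higher for all reads. In T3M-4 it gave 54 to 95 lower (54 without DMSO 1.1) and 3 to 5 higher T>C calls, and 45 to 64 lower for all reads (45 without DMSO 2.2 or NVP2 2.2). Between lines it gave 43 to 56 lower and 43 to 48 higher. Calls over all genes are not given for the fits that left out a library. Scaled by all reads, T>C changes after NVP2 turned to −1.70 for ZNF148, −1.49 for ZNF236 and −2.26 for ZNF652 in AsPC-1, and −1.67 for ZNF148, −0.40 for ZNF428 and −1.89 for ZNF587B in T3M-4. All reads of ZNF618 turned to −0.33 and −0.53 in AsPC-1 with NEG and DMSO 12 h controls and to −0.0155 in T3M-4 without NVP2 2.1, and ZNF185 in T3M-4 to −1.996e-05 under total count scaling.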
